A study of Mus musculus with 90 samples.

Results

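The amygdala and the hypothalamus of resident male C57BL/6J mice that had met no intruder were compared by RNA sequencing. The comparison covers all 28 control libraries of these regions out of 90 libraries in the series, 15 from amygdala and 13 from hypothalamus. They were chosen by region and condition in the labels and not by any measured value. Each resident was housed with other males, then alone, then with a female, who was taken out 3 h before the test. Controls were then given a caged paper cup for 5 min, in place of the caged BALB/cJ male that the exposed residents met. Brains were taken 30, 60 or 120 min later. Amygdala had 5 libraries at each time, and hypothalamus had 3 at 30 min and 5 at each of the other times. The 15 amygdala libraries came from 15 animals by their labels, and 13 of these animals also gave the hypothalamus libraries. No strain, allele or drug separates the groups, and all animals had the same housing, cage and test. The series' design text also says that RNA was pooled for libraries without saying how, so the p-values describe the spread between these libraries.

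The amygdala is a set of nuclei in the temporal part of the forebrain. Its basolateral and cortical parts arise largely from the pallium and are rich in glutamatergic neurons that use the vesicular glutamate transporter Slc17a7, while its central and medial parts hold many GABAergic neurons of subpallial and other origin and lie next to the striatum. The hypothalamus is a set of small nuclei around the third ventricle. Its neurons make peptides that act on feeding, sleep, stress, water balance and the pituitary, and their fates are set by homeodomain and related transcription factors.

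Gene reads per library ranged from 45.1 to 52.4 M in amygdala and from 40.4 to 54.5 M in hypothalamus, and 21059 to 21743 genes had a read. Levels are given as CPM, read counts scaled to the total of gene reads, which do not correct for gene length, so that genes are compared between libraries and not with each other. The share of reads from mitochondrial genes was 7.60% to 10.6% in amygdala and 6.25% to 7.44% in hypothalamus, which do not overlap; its part in the results was not tested. The leading library index also differed between the regions in every library, so index and region cannot be told apart. After the values were seen, 4 libraries were taken to stand apart by genes of neighbouring tissues, by eye and with no numeric rule, and the counts over all genes are also given without them. Others were unusual too and were not left out, such as hypothalamus 120 min 6, whose score for thalamic genes was 4.95 against 3.09 to 3.36 in its group. Hypothalamus 120 min 2 had 167 CPM of Slc17a7, against 2.35 to 22.4 CPM in the other hypothalamus libraries. Amygdala 60 min 5 had 1649 CPM of Ttr, the choroid plexus carrier of thyroid hormone. Amygdala 60 min 6 and hypothalamus 60 min 6, which the labels give to the same animal, had 14.6 and 15.4 CPM of Gh, the growth hormone gene of the pituitary. The bars for 9 genes by library show these values beside those of the other libraries.

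**Figure D1:**
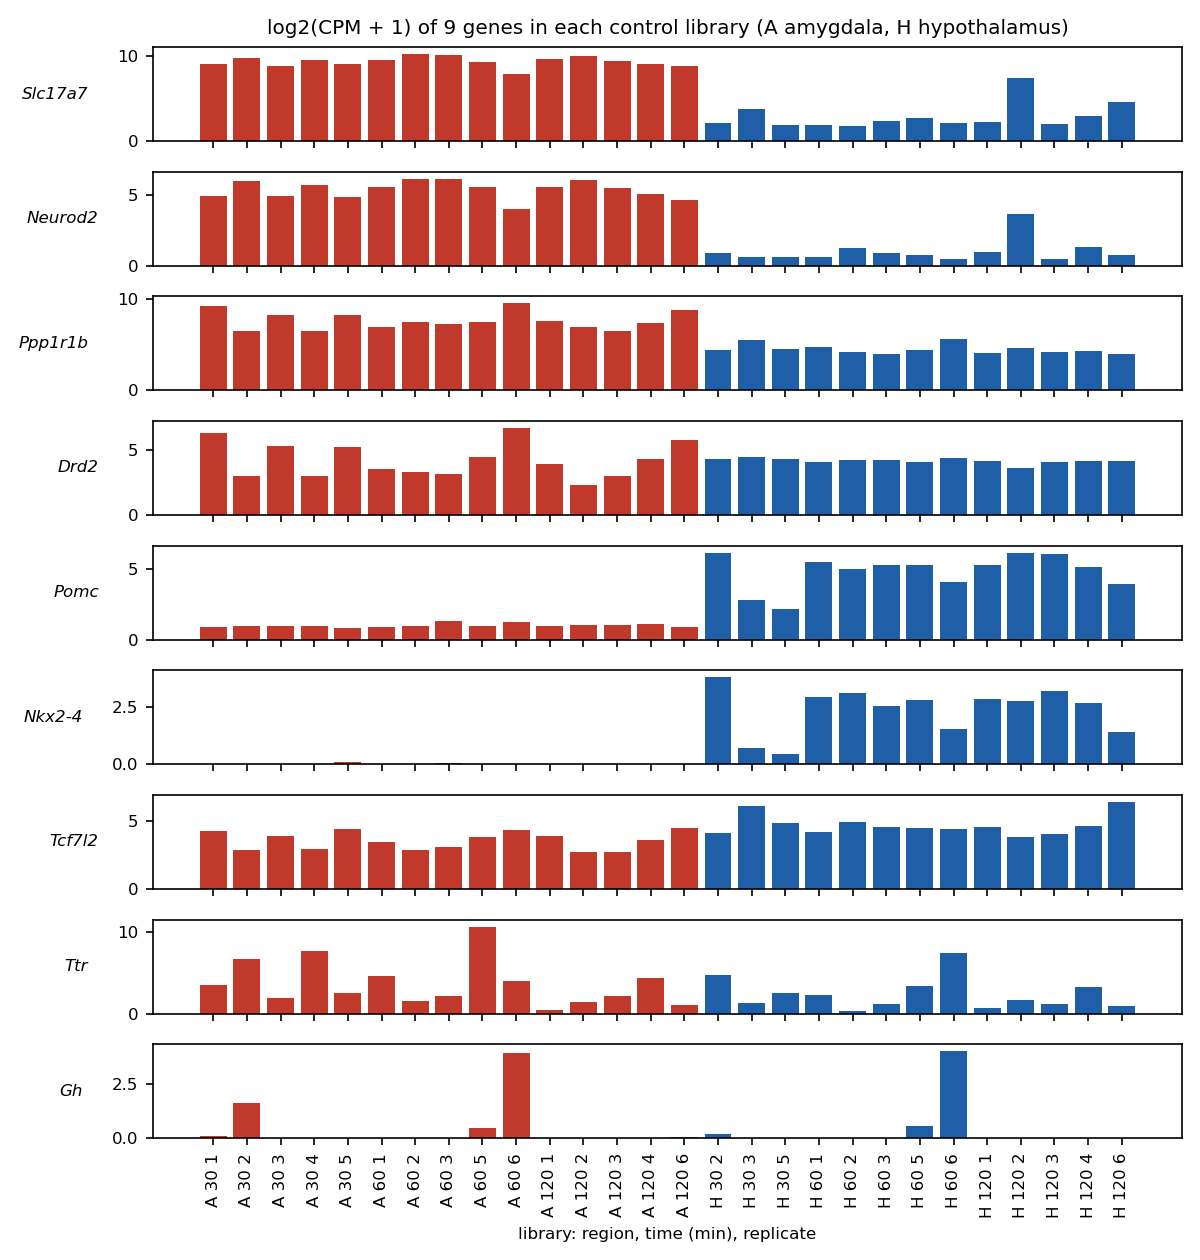
Level of 9 genes in each of the 28 control libraries, as log2(CPM + 1), with amygdala (A) in red and hypothalamus (H) in blue; labels give region, time in min and replicate, and each row has its own scale from 0. Slc17a7 and Neurod2 were high in all amygdala libraries and in hypothalamus 120 min 2, Pomc and Nkx2-4 were low in hypothalamus 30 min 3 and 5, and Gh was highest in the 2 libraries of the animal 60 min 6.

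Most genes differed between the regions. Of 17818 genes tested, 12757 (71.6%) were called by edgeR's quasi-likelihood test at a Benjamini-Hochberg adjusted p below 0.05, with time as covariate. Of these 6366 (35.7%) were higher in amygdala and 6391 (35.9%) higher in hypothalamus, so a call alone says little about a gene. A test for a difference of more than 2-fold called 679 genes (3.81%) higher in amygdala and 737 (4.14%) higher in hypothalamus. Without the 4 libraries that stand apart these became 744 and 770. The lowest library of a region was above the highest of the other for 3920 genes (22%), 1864 (10.5%) with amygdala above and 2056 (11.5%) with hypothalamus above. Counts of listed genes below are to be read beside these shares. All log2 differences below are amygdala minus hypothalamus, and their median over all genes tested was 0. In dissected tissue, fewer cells of a type and less RNA per cell cannot be told apart. The coefficient of variation between libraries, common to all genes, was 15.3% in amygdala and 11.9% in hypothalamus.

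The genes with the largest difference towards amygdala, among those over 2-fold with at least 1 CPM and no overlap of libraries, were led by Igfn1 and Slc17a7. Igfn1 (ENSMUSG00000051985) had 10 to 61.9 CPM in amygdala (median 40.9) and 0.116 to 2.08 CPM in hypothalamus (median 0.195). The log2 difference of 6.69 ± 0.41 (SE) had an adjusted p of 2.37e-14 in edgeR, and was 7.40 without hypothalamus 120 min 2. Slc17a7 (ENSMUSG00000070570) had 231 to 1170 CPM in amygdala (median 664), and its hypothalamus median was 3.85 CPM. The log2 difference of 6.03 ± 0.66 (edgeR, adjusted p 4.13e-09) became 6.90 without hypothalamus 120 min 2. Neurod2 (ENSMUSG00000038255), a basic helix-loop-helix factor of pallial glutamatergic neurons, had 14.6 to 69.6 CPM in amygdala and 0.376 to 11.3 CPM in hypothalamus. Its log2 difference was 4.99 ± 0.44, or 5.85 without that library, which held its highest hypothalamus value.

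The other 9 genes of this set had log2 differences of 4.35 to 4.99. They were Mei1, Gm11549, Rtn4rl2, Mas1 (a receptor of the angiotensin system), Tfap2c, Dtl, Slc30a3 (the zinc transporter of glutamatergic synaptic vesicles), Gucy2g and Krt12. For Gm11549, Rtn4rl2, Mas1, Tfap2c, Dtl and Krt12 the difference was larger by more than 1.5-fold without hypothalamus 120 min 2, and the largest such move was that of Mas1, from 4.87 to 6.37. Mei1 had 1.5 to 3.67 CPM in amygdala and at most 0.21 CPM in hypothalamus, and Gucy2g had 4.27 to 12.7 CPM and 0.221 to 1.07 CPM. For 9 of the 12 genes the median of the 16 frontal cortex controls was at least that of amygdala, and Slc17a7 had 1302 to 1657 CPM there and Gm11549 54.9 to 85.7 CPM. Tfap2c (ENSMUSG00000028640), a transcription factor of the AP-2 family, was low in all 3 regions: 0.515 to 1.90 CPM in amygdala, 0 to 0.286 CPM in hypothalamus and 0 to 0.946 CPM in frontal cortex. Krt12 shares exon sequence with a gene on the opposite strand, and the strand setting of the counting is not given in the sources used here. The genes with the smallest p towards amygdala were Synpr, Me3 and Plk2. Synpr, a synaptic vesicle protein, had 148 to 180 CPM in amygdala and 53.1 to 69.6 CPM in hypothalamus, a log2 difference of 1.44 ± 0.04.

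Towards hypothalamus the largest differences were those of Hcrt and Pmch, peptide precursors of the lateral hypothalamus that are known for arousal and feeding. Hcrt (ENSMUSG00000045471), which encodes the orexins, had 42.8 to 196 CPM in hypothalamus (median 116) and 0.0206 to 0.105 CPM in amygdala (median 0.0591). This is a log2 difference of -10.92 ± 0.28 (SE; edgeR, adjusted p 9.98e-22). Pmch (ENSMUSG00000035383), which encodes melanin-concentrating hormone, had 230 to 645 CPM in hypothalamus (median 403) and 0.105 to 1.11 CPM in amygdala (median 0.270). Its log2 difference was -10.27 ± 0.23, and its adjusted p in edgeR, 5.22e-23, was the smallest of all genes. That every hypothalamus library was above every amygdala library was required by the rule that named these genes, and the gap was wide for both. Pmch shares exon sequence with Parpbp on the opposite strand.

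Homeodomain and other regulators made up most of the rest. Hmx3 had 3.29 to 6.59 CPM in hypothalamus and 3 reads in all 15 amygdala libraries together, a ratio of depth-scaled reads of 1150 with an exact 95% interval of 393 to 5570 for counting error only. Hmx2 had 1.70 to 3.36 CPM in hypothalamus and 2 reads in amygdala, a ratio of 889 with an interval of 246 to 7340. The fitted log2 differences of such genes depend on the prior count of the software, and that of Hmx2 was -8.87 with all libraries and -9.96 without amygdala 60 min 3. That of Sox14 was -8.19 and -8.84. Onecut3 had 5.71 to 9.45 CPM in hypothalamus against at most 0.0581 CPM in amygdala, and Six6 had 5.46 to 17.4 CPM against at most 0.0645 CPM. Nkx2-4 and Sox14, with 0.348 to 12.7 and 0.852 to 5.90 CPM in hypothalamus, were at or below 0.0668 CPM in amygdala. Fndc3c1 varied widely within the hypothalamus, from 0.0522 to 7.17 CPM, and its log2 difference was -8.20 ± 0.89. It was -6.42 at 30 min, -10.3 with 60 and 120 min only, and -6.21 by limma voom, so its size is poorly fixed. Qrfp and Npvf, precursors of RF-amide peptides, had 0.887 to 4.41 and 1.58 to 7.73 CPM in hypothalamus and at most 0.0422 and 0.0668 CPM in amygdala. In the plot of the named genes the regions keep apart for the 23 genes drawn, as the rule requires.

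**Figure D2:**
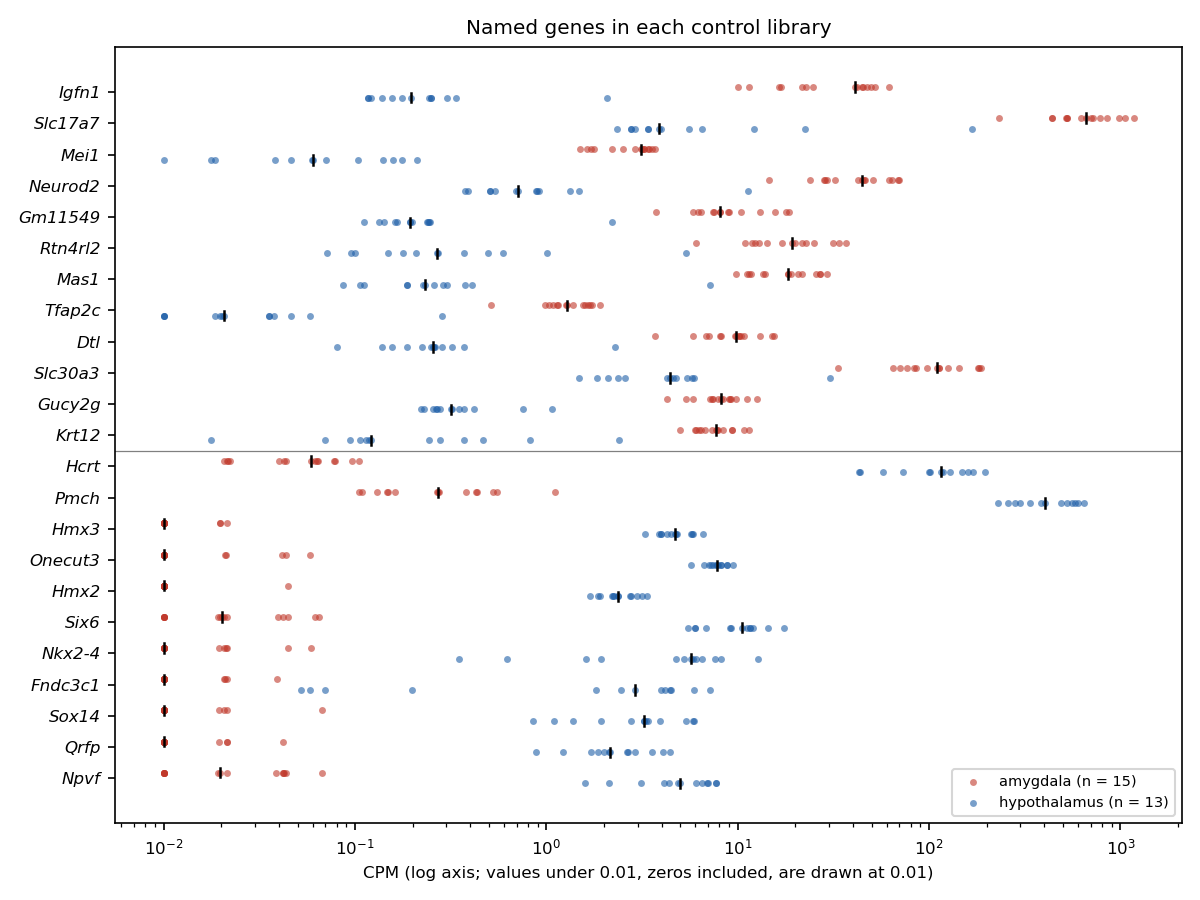
CPM of named genes with the largest difference, 12 higher in amygdala and 11 higher in hypothalamus, on a log axis, in each control library of amygdala (red, n = 15) and hypothalamus (blue, n = 13); black ticks are medians, and values under 0.01 CPM are drawn at 0.01. The isolated blue points of Slc17a7, Neurod2, Rtn4rl2 and Mas1 on the right are from hypothalamus 120 min 2.

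To show the sequences at the starts of 2 leading genes of each region, their promoters were taken from RefSeq (GRCm38.p6), which held 20 of the 24 named genes. Each runs from 250 bases before to 50 bases after the start of the gene, on the strand of the gene. Capitals mark matches to TATAAA (the TATA box), TAATTA (a homeodomain core) or CAGATG (an E-box), searched on both strands, where TAATTA is its own reverse complement. Slc17a7 is at chr7:45163671-45163970 (+) and Neurod2 at chr11:98329596-98329895 (-). Hcrt is at chr11:100762882-100763181 (-) and Pmch at chr10:88090822-88091121 (+).
Slc17a7: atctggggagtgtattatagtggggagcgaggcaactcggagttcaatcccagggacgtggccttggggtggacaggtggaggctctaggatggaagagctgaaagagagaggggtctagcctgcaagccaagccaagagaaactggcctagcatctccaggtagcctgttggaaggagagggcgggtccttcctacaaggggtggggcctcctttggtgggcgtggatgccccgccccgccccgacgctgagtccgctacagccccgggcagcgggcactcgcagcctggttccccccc
Neurod2: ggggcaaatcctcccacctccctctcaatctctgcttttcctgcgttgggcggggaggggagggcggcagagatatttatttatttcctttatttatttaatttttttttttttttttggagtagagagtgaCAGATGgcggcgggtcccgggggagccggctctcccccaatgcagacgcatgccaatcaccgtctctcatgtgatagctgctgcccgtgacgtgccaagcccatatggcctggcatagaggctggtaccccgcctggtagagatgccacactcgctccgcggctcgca
Hcrt: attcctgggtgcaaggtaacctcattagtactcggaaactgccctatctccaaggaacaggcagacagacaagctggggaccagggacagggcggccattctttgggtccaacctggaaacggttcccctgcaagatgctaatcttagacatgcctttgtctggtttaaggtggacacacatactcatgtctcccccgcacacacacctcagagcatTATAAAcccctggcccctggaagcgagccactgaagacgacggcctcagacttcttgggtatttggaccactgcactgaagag
Pmch: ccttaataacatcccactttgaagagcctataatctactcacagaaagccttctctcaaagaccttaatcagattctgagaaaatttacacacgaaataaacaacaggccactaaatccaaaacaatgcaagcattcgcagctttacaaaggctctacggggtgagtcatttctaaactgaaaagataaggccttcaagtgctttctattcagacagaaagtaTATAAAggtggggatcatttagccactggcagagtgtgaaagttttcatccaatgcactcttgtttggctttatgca
TATAAA was found in the promoters of Hcrt, Pmch, Hmx2 and Npvf, 4 of 10 named genes higher in hypothalamus with a sequence. It was in 2 of 10 higher in amygdala, Slc30a3 and Krt12, and in 14.2% of all 27025 promoters of this length. CAGATG was in 2 of 10 promoters of either set, Neurod2 among them, against 17.2% of all. TAATTA was in 1 of 10 of either set against 5.31% of all. With 10 promoters a set these are descriptions, and a match is not a bound site.

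The list of hypothalamic peptides also holds Hcrt, Pmch, Qrfp and Npvf, so its counts in part restate the choice of the named genes. Of 27 peptide genes tested, 17 were higher in hypothalamus, 4 higher in amygdala and 6 not called, with 15 over 2-fold towards hypothalamus and a median log2 difference of -1.82. Kiss1 has no identifier in the table used here. Oxt, the oxytocin precursor, had 106 to 284 CPM in hypothalamus (median 211) and 0.258 to 6.54 CPM in amygdala, a log2 difference of -6.40 ± 0.35 (SE). Avp, the vasopressin precursor, had 143 to 289 CPM in hypothalamus and 0.927 to 44.4 CPM in amygdala (median 11.6), a log2 difference of -4.05 ± 0.39. Avp thus varied far more between amygdala libraries than between hypothalamus libraries, with 44.4 CPM in amygdala 30 min 4 and 0.927 CPM in amygdala 120 min 6. Pomc, the precursor of melanocortins, had 3.46 to 71.5 CPM in hypothalamus and 0.766 to 1.47 CPM in amygdala. Its lowest hypothalamus values were 3.46 CPM in 30 min 5 and 6.10 CPM in 30 min 3, against 71.1 CPM in the other library of that time. Agrp, the feeding peptide of arcuate neurons, had a median of 4.31 CPM in hypothalamus and 0.0869 CPM in amygdala, and its range of 0.0522 to 10.9 CPM overlapped the amygdala range. Ghrh, Gal, Trh and Cartpt had log2 differences of -4.45, -3.58, -2.65 and -1.82, none with overlapping libraries. The 4 peptides higher in amygdala were Penk (1.56), Vip (0.97), Npy (0.94) and Sst (0.91). Sst, the precursor of somatostatin, had 166 to 236 CPM in amygdala and 86.9 to 146 CPM in hypothalamus, with no overlap. Crh, the corticotropin-releasing hormone gene, had 4.32 to 9.90 CPM in amygdala and 1.44 to 11.9 CPM in hypothalamus and was not called (log2 difference 0.20 ± 0.26, adjusted p 0.491).

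The receptors of these peptides and of feeding hormones were split. Of 24 tested, 14 were higher in hypothalamus and 5 in amygdala, against 35.9% and 35.7% of all genes. Of them 9 and 1 were over 2-fold, against 4.14% and 3.81%, and the median log2 difference was -0.66. Ghsr, the ghrelin receptor, had 4 to 10.6 CPM in hypothalamus and 0.247 to 1.49 CPM in amygdala, a log2 difference of -3.07 ± 0.19 (SE). Calcr, the calcitonin receptor, had 27.9 to 43.6 CPM in hypothalamus and 2.21 to 9.05 CPM in amygdala, a log2 difference of -2.92 ± 0.19. Mc3r (-2.23), Glp1r (-1.86), Prlr (-1.86) and Hcrtr2 (-1.52) were also over 2-fold higher in hypothalamus. The receptors of oxytocin and vasopressin lay on opposite sides. Oxtr had 14.5 to 32.4 CPM in amygdala and 7.51 to 22.1 CPM in hypothalamus, a log2 difference of 1.35 ± 0.15, and Avpr1a had 0.358 to 2.29 CPM and 4.22 to 6.80 CPM, a log2 difference of -2.41 ± 0.21. Oxtr passed the test for over 2-fold with all libraries but failed it in 19 of the 28 fits that left out 1 library, where its log2 difference stayed at 1.31 or above. The melanocortin receptor Mc4r had a log2 difference of 0.22 and was called, but was not called in 16 of those 28 fits. Crhr1 (1.07) and Mchr1 (0.94) were higher in amygdala with no overlap of libraries.

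Of 24 hypothalamic transcription factors tested, 23 were higher in hypothalamus and 22 over 2-fold, and the libraries of the regions did not overlap for 17. Their median log2 difference was -3.94, and Hmx2, Hmx3, Six6, Nkx2-4 and Sox14 above are among them. Nr5a1 (SF-1), the factor that marks the ventromedial nucleus, had 3.16 to 33.6 CPM in hypothalamus and 0.0201 to 0.535 CPM in amygdala, a log2 difference of -7.27 ± 0.37 (SE). Otp, a factor of neuroendocrine neurons, had 10.1 to 19.6 CPM in hypothalamus and 0.464 to 3.17 CPM in amygdala. Lhx1, a factor of the suprachiasmatic nucleus, had 3.89 to 14.6 CPM and 0.0422 to 0.433 CPM. Sim1, which also marks part of the amygdala, differed less, with 13 to 23.8 CPM and 4.30 to 13.3 CPM and a log2 difference of -1.12 ± 0.16. Lhx9 was the member higher in amygdala (0.65 ± 0.22). Six3 was below the filter on low counts and Pou3f2 has no identifier. Factors of small nuclei varied between hypothalamus libraries. Bsx, of the arcuate and dorsomedial nuclei, ranged from 0.122 to 7.32 CPM, Rax, of tanycytes, from 0.0522 to 5.69 CPM and Lmx1b, of the posterior hypothalamus, from 0.122 to 7.24 CPM. The log2 difference of Rax was -3.52 with all libraries and -2.90 without hypothalamus 30 min 2, and that of Lmx1b -5.00 and -4.38. That of Lmx1a was -3.96, and -4.74 without amygdala 60 min 5. The mean log2(CPM + 1) over this list was 2.03 to 3.39 in hypothalamus, 0.65 to 0.97 in amygdala and 0.23 to 0.41 in frontal cortex, with no overlap.

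**Figure D3:**
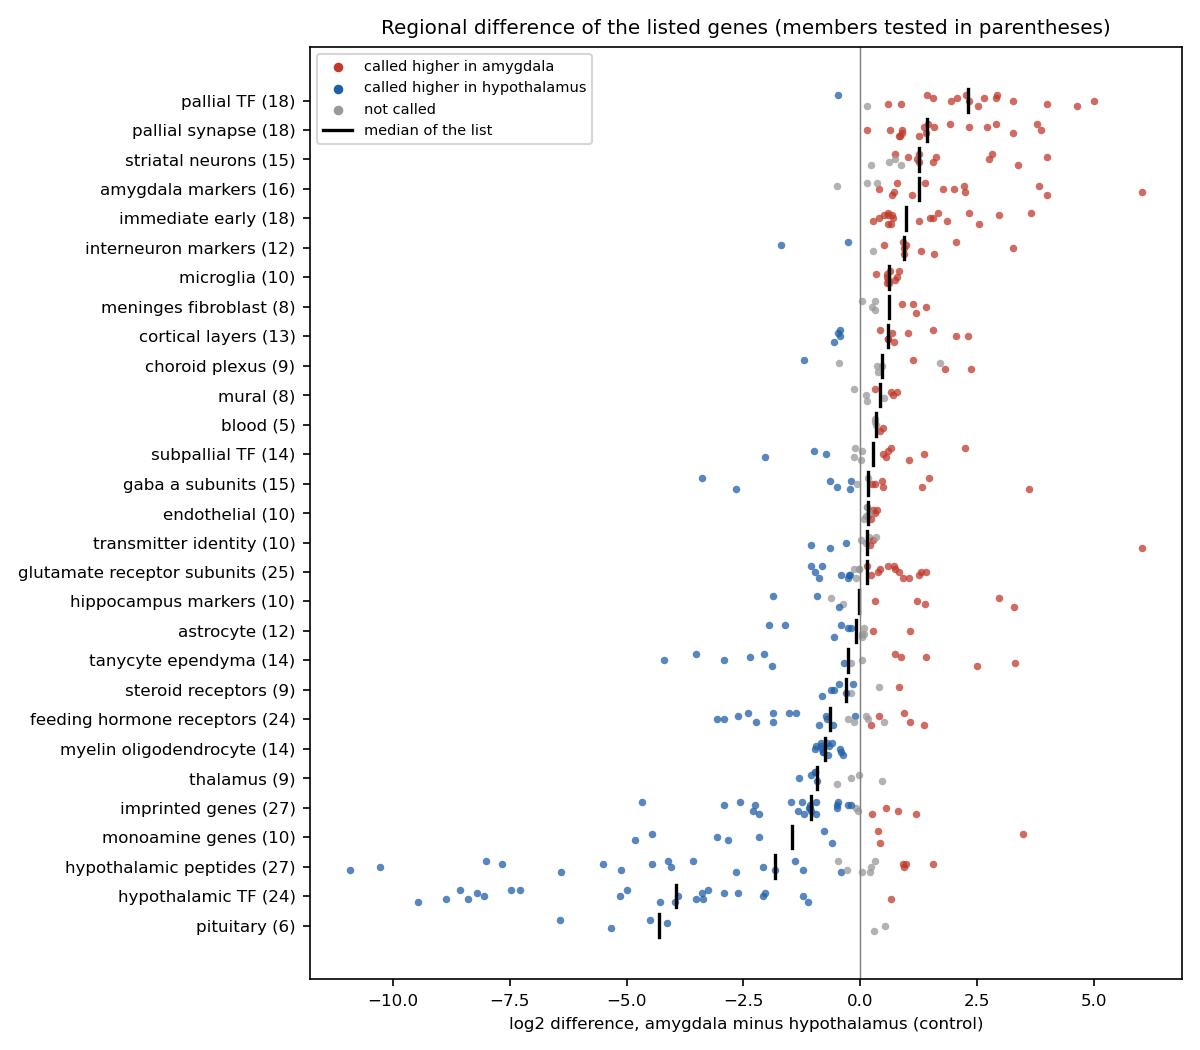
Log2 difference, amygdala minus hypothalamus, of each listed gene that was tested, by list, ordered by the median (black line); points are genes, red and blue are called in the named direction and grey are not called. The median ran from 2.30 for pallial factors to -3.94 for hypothalamic factors and -4.31 for the 6 pituitary genes, and all 10 microglial genes and all 18 immediate early genes lie to the right of 0.

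Of 18 pallial transcription factors, which act in the development of cortex and related glutamatergic regions, 16 were higher in amygdala, 13 over 2-fold, and 1 higher in hypothalamus, with a median log2 difference of 2.30. Tbr1, a factor of glutamatergic neurons, had 31.2 to 93.8 CPM in amygdala and 1.09 to 20.5 CPM in hypothalamus, a log2 difference of 2.91 ± 0.28 (SE). Mef2c had 234 to 443 CPM and 30.3 to 119 CPM, a log2 difference of 2.93 ± 0.18. Emx1 had a log2 difference of 4.63 ± 0.46, which was 5.74 without hypothalamus 120 min 2. Nfix was not called (0.15 ± 0.11). The score of this list, its mean log2(CPM + 1), was 4.72 to 5.65 in amygdala, 2.87 to 4.01 in hypothalamus and 6.21 to 6.50 in frontal cortex.

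Of 16 amygdala markers, 13 were higher in amygdala and 8 over 2-fold, with a median log2 difference of 1.25. Lmo3 had 186 to 417 CPM in amygdala and 50.9 to 113 CPM in hypothalamus, and Cyp26b1, an enzyme that breaks down retinoic acid, had 16.2 to 50.8 CPM and 1.16 to 4.92 CPM. Neurod6 and Meis2 had log2 differences of 3.98 ± 0.30 and 2.24 ± 0.24 (SE). Prkcd, a marker of neurons of the central nucleus, had 13.8 to 24.4 CPM in amygdala and 13 to 126 CPM in hypothalamus and was not called. With all 90 libraries in the fit it was called higher in hypothalamus (-0.49, edgeR adjusted p 0.0393). Prkcd also marks thalamus, and its value of 126 CPM came from hypothalamus 120 min 6, which also had the highest Tcf7l2, a thalamic factor, at 82.4 CPM. Grp and Zfpm2 were not called either. The amygdala score was 5.10 to 5.96 in amygdala and 3.83 to 4.40 in hypothalamus but 5.11 to 5.50 in frontal cortex, so the list separates the amygdala from the hypothalamus and not from the frontal cortex.

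All 18 genes of pallial excitatory synapses were higher in amygdala, 11 over 2-fold and 15 with no overlap of libraries. Over all genes these shares were 35.7%, 3.81% and 10.5%. The median log2 difference of the list was 1.42. Camk2a, the alpha subunit of calcium/calmodulin kinase II, had 1907 to 3416 CPM in amygdala and 431 to 988 CPM in hypothalamus, a log2 difference of 2.33 ± 0.12 (SE). Nrgn, the calmodulin-binding neurogranin, had 412 to 930 CPM and 67.5 to 244 CPM, a log2 difference of 2.89 ± 0.17. Ddn and Itpka, proteins of dendrites and spines, had log2 differences of 3.78 and 3.87. Gria1 differed least, with 472 to 634 CPM and 448 to 571 CPM and a log2 difference of 0.14 ± 0.05, and was not called under upper-quartile scaling (0.09, adjusted p 0.116). The highest hypothalamus score of this list, 7.14, was that of hypothalamus 120 min 2, and the next was 6.54. The score was 7.89 to 8.45 in amygdala and higher in frontal cortex, at 8.52 to 8.71.

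Of 15 genes of striatal projection neurons, 11 were higher in amygdala and 5 over 2-fold, with a median log2 difference of 1.25. Ppp1r1b (DARPP-32) had 85.3 to 728 CPM in amygdala (median 170) and 14.9 to 46.5 CPM in hypothalamus, a log2 difference of 3.38 ± 0.33 (SE). Drd1, the dopamine D1 receptor, had 20.8 to 178 CPM and 6.02 to 15.8 CPM, a log2 difference of 2.75 ± 0.32. Drd2, the dopamine D2 receptor, had 3.98 to 99.8 CPM in amygdala and 11.2 to 20.7 CPM in hypothalamus and was not called (0.61 ± 0.39). The striatal genes thus varied widely between amygdala libraries. Their score was 4.99 to 8.06 in amygdala and 4.59 to 5.29 in hypothalamus, and amygdala 60 min 6 was highest in Drd2 and Ppp1r1b and lowest in Slc17a7. Penk, with a log2 difference of 1.56, was 1.32 without that library. It failed the test for over 2-fold in 7 of the 28 fits that left out 1 library, where its log2 difference stayed at 1.32 or above. Adora2a, an adenosine receptor of the same cells, had 3.52 to 176 CPM in amygdala and 1.04 to 8.35 CPM in hypothalamus. Of 13 genes of cortical layers, 9 were higher in amygdala and 4 in hypothalamus, and of 10 hippocampal markers 5 and 3. Over all genes the shares were 35.7% and 35.9%.

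Of 10 genes of transmitter identity, 3 were higher in each region and 4 were not called, and with the second index as covariate 3 were higher in amygdala and 1 in hypothalamus. Slc17a6, another vesicular glutamate transporter, was higher in hypothalamus, unlike Slc17a7. It had 167 to 275 CPM in hypothalamus and 63.4 to 143 CPM in amygdala, a log2 difference of -1.06 ± 0.09 (SE) with no overlap. Slc32a1, the vesicular GABA transporter, had 125 to 276 CPM in amygdala and 119 to 263 CPM in hypothalamus and was not called (0.01 ± 0.13, adjusted p 0.943). Gad1 was called higher in amygdala (0.26), but not under upper-quartile scaling (adjusted p 0.0577), and Gad2 higher in hypothalamus (-0.31), and Gad2 lost its call in 7 of the 28 fits that left out 1 library. Of 10 monoamine genes tested, 7 were higher in hypothalamus and 3 in amygdala, against 35.9% and 35.7% of all genes. Hdc, which makes histamine, had 4.18 to 92.8 CPM in hypothalamus and 0.824 to 1.8 CPM in amygdala, a log2 difference of -4.82 ± 0.41. Th, which makes the dopamine precursor, had 25.3 to 38.8 CPM and 2.21 to 8.73 CPM, a log2 difference of -2.83 ± 0.16. Slc18a2, the vesicular monoamine transporter, and Slc6a3, the dopamine transporter, had log2 differences of -4.45 and -3.06. Dbh, which turns dopamine into noradrenaline, went the other way: it had 0.255 to 1.16 CPM in amygdala and 0 to 0.177 CPM in hypothalamus, a log2 difference of 3.47 ± 0.30. Slc6a2 and Slc6a4, the noradrenaline and serotonin transporters, were below the filter on low counts.

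The receptors for these transmitters held subunits called in either direction. Of 15 GABA-A subunits, 7 were higher in amygdala and 6 in hypothalamus, against 35.7% and 35.9% of all genes. Their median log2 difference was 0.17, but 0.04 without amygdala 120 min 4 or amygdala 60 min 3 and 0.05 without amygdala 60 min 5. Gabrd, the delta subunit of receptors outside synapses, had 25.5 to 73.7 CPM in amygdala and 0.783 to 12.4 CPM in hypothalamus, a log2 difference of 3.61 ± 0.39 (SE) that was 4.22 by limma voom, and Gabra4 had one of 1.31 ± 0.12. Gabre and Gabrq, the epsilon and theta subunits, had 28.2 to 56.8 and 99.1 to 153 CPM in hypothalamus and 1.90 to 6.97 and 10.5 to 29.8 CPM in amygdala. Their log2 differences were -3.39 ± 0.17 and -2.66 ± 0.12. Of 25 glutamate receptor subunits, 13 were higher in amygdala and 8 in hypothalamus, beside the same shares of all genes. Of these subunits 2 were over 2-fold, Grin2a (1.40) and Gria3 (1.30). Of the NMDA receptor subunits, Grin2c (1.05) was higher in amygdala and Grin2d (-1.06) in hypothalamus, and the libraries of the regions did not overlap for either. Of 12 interneuron markers, 9 were higher in amygdala and 2 in hypothalamus, against 35.7% and 35.9% of all genes. Of the 2, Calb1 (-0.27) lost its call in 15 of the 28 fits that left out 1 library. Cck and Lamp5 had log2 differences of 3.26 and 2.04, and Calb2, the calretinin gene, had 174 to 263 CPM in hypothalamus and 45.7 to 91.9 CPM in amygdala (-1.70 ± 0.08).

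Of 27 imprinted genes, which are expressed from the allele of 1 parent, 21 were higher in hypothalamus, 4 higher in amygdala and 2 not called, with a median log2 difference of -1.06. Over all genes 35.9% were higher in hypothalamus and 35.7% in amygdala. Of the 27 imprinted genes 9 were over 2-fold, all towards hypothalamus, against 4.14% of all genes. The libraries did not overlap for 18, against 22% of all genes. Asb4 had 23 to 67.8 CPM in hypothalamus and 1.01 to 2.45 CPM in amygdala, a log2 difference of -4.66 ± 0.15 (SE). Dlk1, a paternally expressed Notch ligand homologue, had 213 to 338 CPM and 30.4 to 69.5 CPM, a log2 difference of -2.57 ± 0.11. Peg10 had 447 to 694 CPM and 81.8 to 177 CPM (-2.29 ± 0.11), and Magel2, of the Prader-Willi region, had 80.2 to 141 CPM and 12.1 to 39.5 CPM (-2.26 ± 0.15). Peg3, Nap1l5, Zim1 and Ndn had log2 differences of -1.20, -1.25, -1.48 and -1.07. Meg3, the noncoding RNA next to Dlk1, had 4469 to 8144 CPM in amygdala and 6374 to 7663 CPM in hypothalamus and was not called (-0.09 ± 0.07). Igf2 (1.18), Mest (0.81), Cdkn1c (0.55) and Mkrn3 (0.25) were higher in amygdala, and Mkrn3 lost its call in 18 of the 28 fits that left out 1 library. Cdkn1c was not called with 60 and 120 min only (0.39, adjusted p 0.119). Igf2 is also a meningeal gene, and its amygdala range was 30.2 to 199 CPM.

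Of 9 steroid receptor and steroid enzyme genes, 6 were higher in hypothalamus and 1 in amygdala, none over 2-fold. Esr1, the oestrogen receptor alpha, had 15.8 to 28.1 CPM in hypothalamus and 4.81 to 25.1 CPM in amygdala (-0.62 ± 0.24, SE), and was not called without the 4 libraries that stand apart (adjusted p 0.0677). Nr3c2, the mineralocorticoid receptor, had 35.6 to 51.6 CPM in amygdala and 23.5 to 29.8 CPM in hypothalamus, with no overlap (0.83 ± 0.05). Nr3c1, the glucocorticoid receptor, differed little (-0.15 ± 0.03). Of 14 subpallial transcription factors tested, 7 were higher in amygdala and 3 in hypothalamus.

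Markers of some other cell types differed between regions, and their part in the neuronal results was not tested. All 14 myelin and oligodendrocyte genes were higher in hypothalamus, none over 2-fold, with a median log2 difference of -0.76; the score was 6.32 to 7.42 in amygdala and 7.28 to 7.81 in hypothalamus, and no member was at 0. Mbp, the myelin basic protein gene, had 970 to 2376 CPM in amygdala and 2180 to 3428 CPM in hypothalamus. All 10 microglial genes were higher in amygdala, 9 with no overlap, against 35.7% and 10.5% of all genes. Their median log2 difference was 0.60. The score was 4.82 to 5.26 in amygdala, 4.30 to 4.63 in hypothalamus and 5.07 to 5.34 in frontal cortex. P2ry12, a purine receptor of microglia, had 30.5 to 44.9 CPM in amygdala and 17.9 to 25.7 CPM in hypothalamus, a log2 difference of 0.78 ± 0.06 (SE). Of 12 astrocyte genes, 6 were higher in hypothalamus and 2 in amygdala. Slc1a2, the main glial glutamate transporter, had 2093 to 2998 CPM in amygdala and 1127 to 1464 CPM in hypothalamus (1.06 ± 0.04). Slc6a11, the GABA transporter GAT3, had 647 to 890 CPM in hypothalamus and 204 to 330 CPM in amygdala (-1.62 ± 0.06), and Agt, the angiotensinogen gene, had 175 to 250 CPM and 29.5 to 75.7 CPM (-1.96 ± 0.10). Aldh1l1, Gja1 and Slc1a3 were not called, with log2 differences of 0.07, 0.04 and 0.04. With the animal as block they were called higher in amygdala, at 0.09, 0.06 and 0.06 (edgeR adjusted p 0.0113, 0.0225 and 0.0494), so that 5 astrocyte genes and not 2 were higher there.

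Of 14 genes of tanycytes and ependyma, cells that line the third ventricle, 7 were higher in hypothalamus and 5 in amygdala. The ciliary genes Foxj1, Tmem212 and Ccdc153 had log2 differences of -2.07, -4.21 and -2.35 with no overlap of libraries, and Tmem212 was -5.26 by limma voom. Foxj1, the master factor of motile cilia, had 18.4 to 34.5 CPM in hypothalamus and 4.37 to 9.71 CPM in amygdala. Dio2 and Crym, listed as tanycyte genes and also expressed in astrocytes and in neurons respectively, were higher in amygdala, with log2 differences of 2.49 ± 0.14 and 3.30 ± 0.36 (SE). That of Crym was 3.96 without the 4 libraries that stand apart. Of 9 choroid plexus genes, 3 were higher in amygdala and 1 in hypothalamus, but without amygdala 60 min 5 the counts were 0 and 3. Without that library Ttr went from 2.36 to 0.43 (adjusted p 0.726), Kcnj13 from 1.82 to 1.14 (adjusted p 0.0576) and Aqp1 from 1.13 to 0.31 (adjusted p 0.393), and none was called. Otx2 went from -1.21 to -2.12, and Clic6 was called at -0.63. Over the 28 fits that left out 1 library, Ttr lost its call in 13 and Aqp1 in 12, and with 60 and 120 min only 0 of the 9 genes were called. With the animal as block, 1 was higher in amygdala and 2 in hypothalamus. Of 8 genes of meninges, 4 were higher in amygdala, as were 4 of 10 endothelial and 4 of 8 mural genes, shares near the 35.7% of all genes. Without the 4 libraries that stand apart, 2 endothelial genes were higher in amygdala, and 3 mural genes were, with 1 higher in hypothalamus. Tek (adjusted p 0.318), Cdh5 (0.0605) and Acta2 (0.347) lost their calls there, and Tek lost its call in 15 and Acta2 in 10 of the 28 fits that left out 1 library. The endothelial count was 8 without amygdala 120 min 4 and 7 without amygdala 60 min 3. Of 6 pituitary genes tested, 4 were higher in hypothalamus, at medians of 0.0382 to 1.54 CPM there. Their medians were 0 in amygdala, and Gh and Prl were not called. Gh was called higher in amygdala, at 3.97 (adjusted p 0.00757), without hypothalamus 60 min 6, and its log2 difference ranged from -1.80 to 3.97 when 1 library was left out. By limma voom, Cga, Tshb and Fshb were -4.91, -2.51 and -2.19. They were still called but failed the test for over 2-fold, as Pitx1 did under 1 alternative. The median of the list by limma voom was -2.35. That median was -4.31 in edgeR with all libraries, -5.69 without amygdala 60 min 6 and -5.91 without the 4 libraries that stand apart. Cga, the common subunit of pituitary hormones, had up to 7.45 CPM in hypothalamus, with a log2 difference of -6.43 that was -7.62 without amygdala 60 min 6. Fshb was -4.14 and -5.78, but was not called with equal weight over times (adjusted p 0.158) or with all 90 libraries in the fit (adjusted p 0.226), and that of Tshb -4.49, and -5.21 without amygdala 120 min 6. Tshb had 3 reads in all amygdala libraries and a ratio of 38.8 with a 95% interval of 12.9 to 191.

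All 18 immediate early genes, which neurons switch on within minutes of activity, were higher in the amygdala of these control animals, with 9 over 2-fold and a median log2 difference of 0.97. The weakest, Klf4 (0.26), lost its call in 3 of the 28 fits that left out 1 library, without the 4 libraries that stand apart (0.17, adjusted p 0.148) and under 3 other alternatives. Arc, which acts at synapses, had 33.7 to 139 CPM in amygdala (median 81.5) and 9.81 to 20.8 CPM in hypothalamus (median 15.7), a log2 difference of 2.33 ± 0.12 (SE). Egr3 had 24.5 to 42.2 CPM and 1.46 to 6.98 CPM, a log2 difference of 3.65 ± 0.18, and Egr4 had 15.3 to 34.6 CPM and 1.88 to 4.29 CPM, one of 2.97 ± 0.11. Fos differed less, with 11 to 39.4 CPM and 8.35 to 34 CPM (0.39 ± 0.09), and its libraries overlapped, as did those of 13 of the 18 genes. Npas4, which depends on calcium entry, had 8.53 to 20.7 CPM and 6.71 to 11.6 CPM (0.65 ± 0.08). The score of this list was 4.18 to 5.19 in amygdala (median 4.77) and 3.1 to 3.9 in hypothalamus. In frontal cortex it was 5.11 to 5.94 (median 5.61), so these genes were not highest in amygdala.

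**Figure D4:**
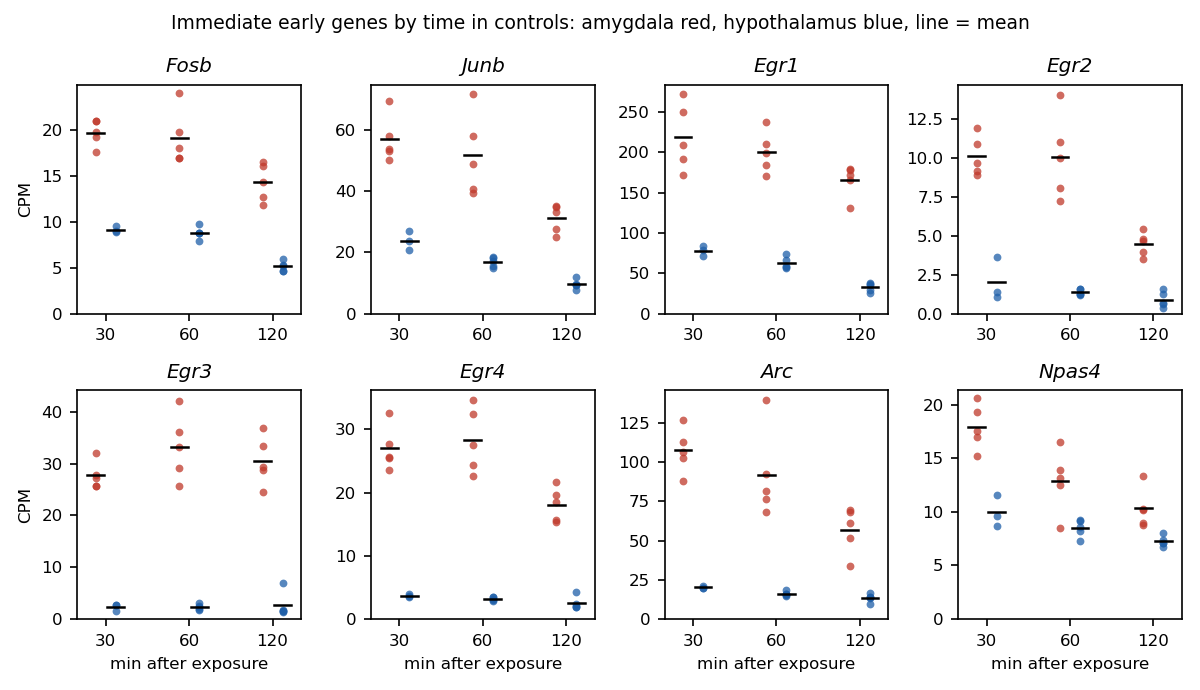
CPM of 8 immediate early genes in each control library at 30, 60 and 120 min, with amygdala in red and hypothalamus in blue; points are libraries (5 per group, 3 for hypothalamus at 30 min), lines are means and each axis starts at 0. Amygdala libraries lie above hypothalamus libraries at each time for Fosb, Egr1, Egr3, Egr4 and Arc, and Egr1 in hypothalamus has medians of 78.2, 58.4 and 35.7 CPM from 30 to 120 min.

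The regional difference was present at each time. In the model with 1 mean per region and time, the test called 8540 genes (47.9%) at 30 min, 10360 (58.1%) at 60 min and 9457 (53.1%) at 120 min. Over 2-fold, 1.96%, 3.13% and 2.3% of genes were higher in amygdala at these times, and 2.48%, 3.4% and 3.03% higher in hypothalamus. A test of whether the regional difference itself changed with time called 0 genes with edgeR, while 794 of 17818 had an unadjusted p below 0.05. On simulated data, with the change put in amygdala at 60 min only, this test called 52% of genes changed 1.5-fold and 91% of those changed 4-fold. Counts were drawn there for each gene on its own, without shifts shared by the genes of a dissection. These shares thus need not hold for the real libraries. By DESeq2 there were 6, Egr1, Tceal8 and the low-level loci Gm11273, Rpl19-ps11, Gm6654 and Gm7808, and the fit with a coefficient for each animal (replicate block) called Egr1 alone. Egr1 had median levels of 210, 199 and 171 CPM in amygdala and 78.2, 58.4 and 35.7 CPM in hypothalamus at 30, 60 and 120 min. Its adjusted p was 0.0335 in each of those fits.

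The 30 libraries of residents exposed to the intruder, from other animals, gave the same comparison a separate set of samples. Of 17559 genes tested there, 36.8% were called higher in amygdala and 37% higher in hypothalamus. Over 2-fold, 724 (4.12%) were higher in amygdala over 2-fold and 742 (4.23%) higher in hypothalamus. Of the genes over 2-fold, 1270 were shared in the same direction, 89.7% of those in controls and 86.6% of those in exposed animals, and 0 in opposite directions. Hcrt and Pmch had log2 differences of -10.67 and -10.04 in exposed animals, Oxt -6.49, Slc17a7 6.67 and Neurod2 5.31. Dbh had 2.40 against 3.47 in controls. A test of whether the regional difference changed with condition called 0 of 18117 genes with edgeR, and 463 had an unadjusted p below 0.05. By DESeq2 there was 1, Tfap2d, which had at most 0.21 CPM in control hypothalamus and 8.75 CPM in 1 exposed hypothalamus library at 120 min, where the group's median was 0.

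**Figure D5:**
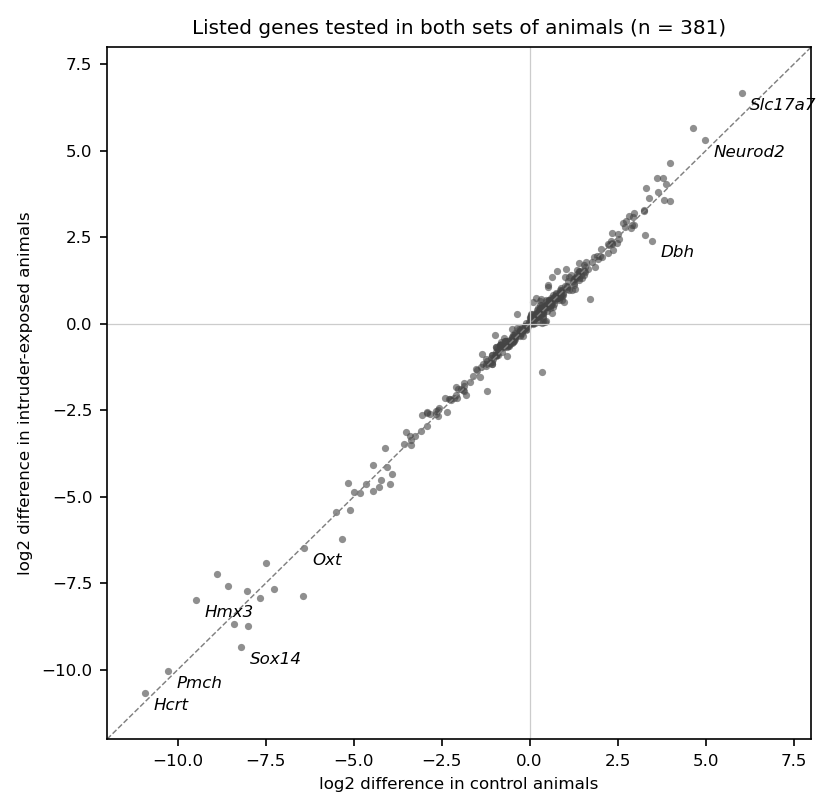
Log2 difference, amygdala minus hypothalamus, in control animals (x axis) and in intruder-exposed animals (y axis) for the 381 listed genes tested in both; each point is a gene and the dashed line marks equal values. Hcrt and Pmch lie lowest and Slc17a7 highest in both sets.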

How the data were processed

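Poly(A) RNA libraries were made with a stranded kit and sequenced from 1 end, per the labels' protocols. The deposited table holds the authors' raw read counts per gene for 90 libraries. Per the submitters' processing notes, CASAVA 1.8.2, TopHat2 2.0.8, HTSeq 0.6.1, edgeR 3.2.4 and R 3.0.0 were used with build NCBIM37. The strand setting of the counting is not given in the sources used here, so overlapping genes are uncertain. All 90 columns matched a sample. Of 37991 gene identifiers, 32919 were named from Gencode M21, and 5 rows that name no gene were left out. The file headers carry the tag ISO at 30 min and CERV at 60 and 120 min, so tag and time cannot be told apart.

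Regions were compared with edgeR 4.0.16 (quasi-likelihood test, TMM scaling, filterByExpr, time as covariate) in R 4.3.3, with Benjamini-Hochberg adjustment over all genes. The test for over 2-fold was glmTreat at a log2 of 1. SE is the log2 difference divided by the square root of F. CPM used TMM over all 90 libraries. Depth is given with the results, and intervals cover counting error only. Named genes were the 12 with the largest difference in each direction among those over 2-fold, at 1 CPM or more and without overlap, and the 3 with the smallest p in each direction; members of 29 lists could also be named. A few of these genes are not reported here. The members and lists were chosen with earlier results of these data known. Other scalings, no filter, limma 3.58.1, DESeq2 1.42.0, a second index, and leaving out each library were tried. Libraries of both regions came from the same animal by their labels, which pairs them. Their deviations from the group mean correlated at 0.0135 to 0.305 (median 0.163) over 13 animals, 9 of them over 0.1. The median between animals was -0.0464. Deviations cancel out within a group, so a positive value within an animal lowers those between animals, which are no independent baseline. On simulated data for the control region difference, on 17685 genes, 86% of genes changed 1.5-fold and 98% of those changed 4-fold were called; for the change with time the shares were 52% and 91% on 17681 genes.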

Additional observations from a re-analysis of the deposited data

Results flagged for a closer look

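In the 5 groups of 5 control libraries, 150 tests asked whether 1 library lay far from the others, on the mean log2(CPM + 1) of each of 29 lists and on depth. All 14 that passed were list scores, beyond Dixon's 95% limit, where chance gives about 1 in 20, or 7.5. In amygdala, the score of hypothalamic factors was 0.79 in 120 min 2 against 0.89 to 0.93 in the others. The cortical layer score was 4.58 in 30 min 1 against 4.69 to 4.71. The pituitary score was 0.35 in 30 min 2 against 0.01 to 0.03, and 0.94 in 60 min 6 against 0.01 to 0.1. The myelin score was 7.26 in 60 min 6 against 6.68 to 6.83, and the choroid plexus score 4.83 in 60 min 5 against 1.23 to 1.82.

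In hypothalamus, 120 min 2 had a pallial synapse score of 7.14 against 6.24 to 6.34 and an interneuron score of 5.26 against 4.88 to 4.95. The thalamus score was 4.95 in 120 min 6 against 3.09 to 3.36. Hypothalamus 60 min 6 stood apart in 5 lists. It was low in peptides (4.31 against 4.48 to 4.54), hypothalamic factors (2.23 against 2.9 to 3.13) and monoamine genes (3 against 3.43 to 3.59). It was high in subpallial factors (3.64 against 3.2 to 3.29) and GABA-A subunits (5.97 against 5.74 to 5.8).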

How the results depend on the processing

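The counts over all genes that differed between regions stayed within 1.5 times under every alternative run. Across alternatives, genes higher in amygdala numbered 5467 to 6752 and in hypothalamus 5911 to 7369, and those over 2-fold 559 to 785 and 646 to 859. Leaving out 1 library gave 6215 to 6367, 6270 to 6395, 647 to 738 and 712 to 758. By time it gave 7213 to 8802 at 30 min, 9696 to 10430 at 60 min and 8801 to 9690 at 120 min. With the animal as replicate block the 4 counts were 6359, 6444, 703 and 764; the block took the change of the difference with time from 0 to 1 gene. Of the lists, it moved the genes higher in amygdala from 2 to 5 for astrocytes, 3 to 1 for choroid plexus, 2 to 5 for blood and 0 to 1 for thalamus. DESeq2 called 6 genes in that test and 1 in the test by condition, where edgeR called 0, and the cause was not tested. Among single genes the choroid plexus gene Folr1 reversed: it was 0.35 and not called with all libraries, -1.09 without amygdala 60 min 5 (adjusted p 0.0451), and ranged from -1.09 to 0.5 when 1 library was left out; the cause was not tested. Levels near 0 CPM limit the fitted difference of genes seen in 1 region.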

Other observations

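Among amygdala libraries the striatal gene Ppp1r1b and the pallial gene Slc17a7 moved in opposite directions; the pair was chosen after the values were seen. In the 15 controls, with Ppp1r1b at 85.3 to 728 CPM and Slc17a7 at 231 to 1170 CPM, log2 CPM correlated at Pearson r = -0.744 (permutation p = 0.0013, adjusted over 2 relations 0.0013) and Spearman rho = -0.682 (permutation p = 0.0064, adjusted 0.0064). Without the 2 libraries farthest from the median of Ppp1r1b, r was -0.596, and centred on each time it was -0.75. In the 15 exposed libraries, r was -0.789 (permutation p = 0.00033, adjusted 0.00066) and rho -0.786 (permutation p = 0.00095, adjusted 0.0019), and r was -0.808 without 2 libraries and -0.803 centred on time. Both genes share the total of their library as denominator.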
